A study of Mus musculus with 8 samples.

Results

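The genes described here encode the main drug-metabolizing enzyme families of mouse kidney proximal tubule cells in culture: the cytochrome P450 families Cyp1, Cyp2 and Cyp3a, the UDP-glucuronosyltransferases (Ugt), the cytosolic sulfotransferases (Sult), the flavin-containing monooxygenases (Fmo) and the carboxylesterases (Ces). Members were taken by gene symbol. The array carried 147 probes for 114 such genes, and a probe was kept where the scanner software marked it as well above its local background on 4 or more of the 8 arrays, which left 62 probes for 48 genes. These 48 genes were among 14476 genes tested. Of the 66 genes not kept, 48 were well above background on 0 arrays and 18 on 1 to 3 arrays, including every Cyp1a, Cyp2b and Ugt2a gene on the array. Nearest below the limit was Cyp2c29, which passed on 3 GW4064 arrays and 0 DMSO arrays (mean log2 signal relative to the array's 75th percentile -6.04 and -6.45), and nearest inside it were Cyp2j5 and Ugt3a2, which passed on 4 GW4064 arrays and 2 DMSO arrays (-4.90 and -5.76, and -5.43 and -5.88).

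Primary tubule cells were grown to confluence from trypsin-digested kidney cortex of male C57/BJ mice aged 6 weeks, from a pellet that held mostly renal tubules. In serum-free medium they then received either DMSO (4 samples) or 1 uM GW4064 (4 samples) for 24 h. The compound GW4064 activates the farnesoid X receptor FXR (gene Nr1h4), the nuclear receptor for bile acids. RNA of each sample was hybridised to 1 single-colour Agilent array. Whether samples came from separate animals or cultures is not given in the labels, so the p-values reflect only how these samples vary, and that variation may be technical.

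Drug metabolism is usually described in phases. P450 and flavin monooxygenases oxidise a compound and carboxylesterases cleave its esters and amides, while sulfotransferases and glucuronosyltransferases attach a sulfate or a glucuronic acid that makes the product easier to excrete. The proximal tubule takes up organic anions and cations from blood and expresses many of these enzymes, and nuclear receptors such as PXR, CAR and FXR and the aryl hydrocarbon receptor are known to control some of them.

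Levels are given as the log2 signal of a gene's brightest kept probe minus the 75th percentile of its array. They are compared between samples for the same probe, not between genes. For marker lists they were also summed over genes on the linear scale, where bright probes weigh most. The 75th percentile lay between 1203 and 1900 intensity units and 61.4% to 65.7% of probes were well above background, and 0 member spots were saturated. The arrays came on 2 slides, with replicates 1 and 2 of both groups on the first and replicates 3 and 4 on the second. On each slide DMSO samples lay in places 1 and 2 and GW4064 samples in places 3 and 4, so that treatment and place cannot be told apart.

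With GW4064, 16 of the 48 genes were higher (33.3%) and 7 lower (14.6%) at an adjusted p under 0.05 in limma, and 25 did not pass. Over all genes tested 20.8% passed, 11.8% as higher and 8.95% as lower. The groups did not overlap for 26.2% of all genes, with GW4064 above for 15% and below for 11.2%; among members 17 lay above (35.4%) and 5 below (10.4%). In all, 4 members were both past the threshold and changed at least 2-fold, all of them higher: Cyp2d26, Sult1a1, Ces2b and Ces2c. That is 8.33% of members, against 1.3% of all genes in either direction and 0.988% higher. The median log2 fold change was 0.16 over the members and 0.015 over all genes. Without the filter on dim probes it was -0.062 over 114 members, 17 of them higher and 4 lower, and -0.017 over all genes. In that fit 2167 genes passed, but their share of all genes was not computed. Whether the members exceed all genes without the filter is therefore not shown. By family, 3 of 4 kept Ces, 3 of 4 Fmo, 2 of 2 Ugt1a, 1 of 1 Cyp1b, 6 of 21 Cyp2 and 1 of 7 Sult genes were higher, and 3 of 5 Ugt2b, 3 of 7 Sult and 1 of 21 Cyp2 genes were lower. Cyp2j13 counts as higher by its brightest probe, while its other kept probe was lower. The called members had the same sign on both slides in 23 of 23 cases. The calls were made from these same arrays, so the shared sign is not independent support for them. With the planned normexp background correction 1 of the 23 calls was kept, Ces2c. In a repeat added after seeing the data, with marked local backgrounds replaced by the array's median, 15 members were higher and 5 lower. Below, these are called the planned and the altered normexp fit.

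**Figure D1:**
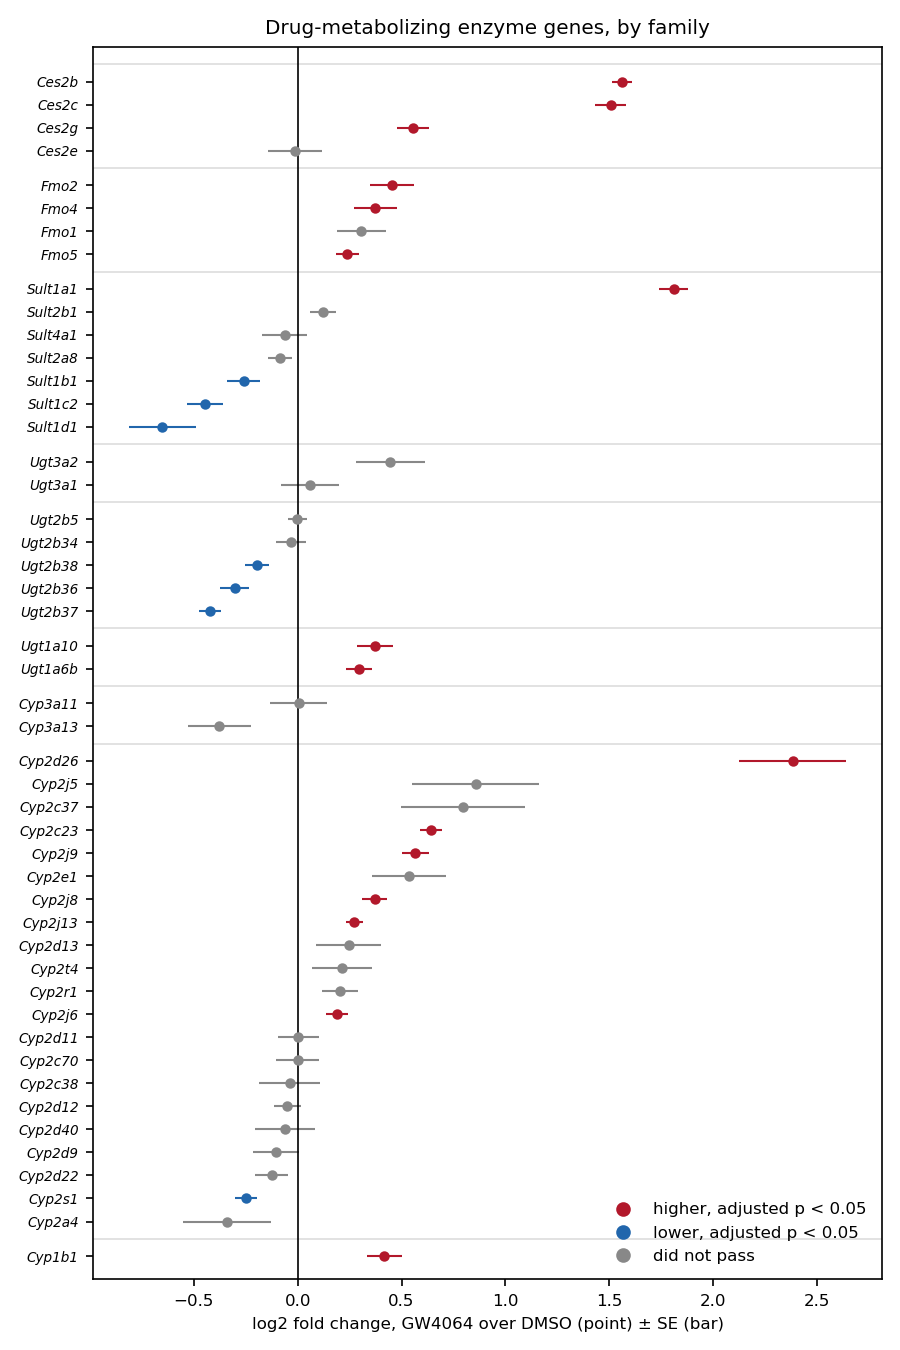
Log2 fold change of GW4064 over DMSO (x axis, point ± SE, n = 4 arrays a group) for the 48 kept genes, listed by family on the y axis. The 16 genes that passed as higher are red, the 7 that passed as lower blue and the 25 others grey; Cyp2d26, Sult1a1, Ces2b and Ces2c lie farthest to the right.

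The promoters of the genes with the largest changes are shown because those genes carry the main result, and Ces2g as a relative of Ces2c that also passed as higher. They run from 250 bases before to 50 after each gene's start as RefSeq gives it (GRCm38.p6), 5′ to 3′ on the gene's own strand, in lower case with searched motifs in capitals. Ces2b, the other strong responder, had no entry among the promoters. Ces2c and Ces2g lie on the plus strand at chr8:104846818-104847117 and chr8:104961468-104961767, and Sult1a1 and Cyp2d26 on the minus strand at chr7:126676369-126676668 and chr15:82794196-82794495.
Ces2c: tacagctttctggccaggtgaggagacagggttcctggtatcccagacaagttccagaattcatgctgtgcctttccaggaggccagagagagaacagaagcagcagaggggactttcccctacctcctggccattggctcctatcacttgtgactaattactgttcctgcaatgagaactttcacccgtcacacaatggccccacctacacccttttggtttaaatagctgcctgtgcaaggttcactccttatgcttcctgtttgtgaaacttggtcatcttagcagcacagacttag
Ces2g: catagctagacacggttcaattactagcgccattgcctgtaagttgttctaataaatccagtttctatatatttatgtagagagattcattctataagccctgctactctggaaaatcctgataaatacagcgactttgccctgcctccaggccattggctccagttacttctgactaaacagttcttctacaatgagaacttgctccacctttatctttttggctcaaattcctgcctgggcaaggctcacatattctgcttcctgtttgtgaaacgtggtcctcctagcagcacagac
Sult1a1: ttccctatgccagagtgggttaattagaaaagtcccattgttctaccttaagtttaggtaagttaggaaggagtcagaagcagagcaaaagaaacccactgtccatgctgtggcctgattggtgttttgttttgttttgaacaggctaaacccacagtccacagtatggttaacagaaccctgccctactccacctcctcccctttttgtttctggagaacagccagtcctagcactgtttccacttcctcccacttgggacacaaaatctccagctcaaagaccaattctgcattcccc
Cyp2d26: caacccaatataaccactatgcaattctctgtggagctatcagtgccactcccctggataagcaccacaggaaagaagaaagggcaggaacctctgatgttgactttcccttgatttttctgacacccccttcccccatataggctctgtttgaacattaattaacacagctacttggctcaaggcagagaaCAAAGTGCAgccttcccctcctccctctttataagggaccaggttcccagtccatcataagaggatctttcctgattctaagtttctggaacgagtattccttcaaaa
Capitals mark CAAAGTNCA, the core of the HNF4 site, in Cyp2d26. Motifs were searched on both strands, and this one was picked after values were seen. It was present for 5 of the 39 member genes with an entry, where any promoter of a gene counted. It was in 1.41% of all 32851 promoters, counted singly, so for each motif the shares are in unlike units. By call it was in 1 of 13 higher members, 1 of 7 lower ones and 3 of 19 that did not pass. The perfect inverted repeat bound by FXR with RXR (spaced by 1 base) was in 0 of 39 and in 0.00913% of all promoters. The aryl hydrocarbon receptor core GCGTG was in 7 of 39 (32.4% of all promoters) and the antioxidant response core TGACNNNGC in 1 of 39, Cyp2j6 (12.4%). Ces2c and Ces2g share 62.4% of aligned promoter bases, Ces2c and Ces2e, a member that did not pass, 55.5%, and Ces2e and Ces2g 57%; promoters of different families share 49.9% to 52.6%. A match describes only letters in this window.

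Of the 4 kept carboxylesterases 3 rose, Ces2b and Ces2c by more than 2-fold. Ces2b, a carboxylesterase of the endoplasmic reticulum that hydrolyses ester drugs and lipids, was at -1.83, -1.65, -1.65 and -1.69 in DMSO replicates 1 to 4 and at -0.19, -0.14, -0.13 and -0.13 with GW4064. All GW4064 arrays lay above all DMSO arrays, by a gap wider than the spread in either group. The rise was 1.56 ± 0.05 on the log2 scale (SE, n = 4 a group), or 2.95-fold, with an adjusted p = 6.57e-07 in limma. Ces2c, a close relative, was at -1.32, -1.06, -1.29 and -1.30 in DMSO and at 0.20, 0.20, 0.24 and 0.43 with GW4064. It rose 2.84-fold (1.51 ± 0.07 log2, adjusted p = 7.05e-06 in limma), and its 3 probes gave 1.39 to 1.51. All 3 pointed the same way. Ces2g was at -5.42, -5.61, -5.73 and -5.62 in DMSO and at -5.16, -5.11, -4.94 and -4.96 with GW4064. Its groups did not overlap and it rose 1.47-fold (0.55 ± 0.08 log2, adjusted p = 0.00178 in limma), with the sign turned under the normexp background correction (-0.495). That call was also lost in the altered normexp fit (adjusted p = 0.0981 in limma). Ces2e did not pass, with a log2 fold change of -0.01 ± 0.13. No Ces1, Ces3, Ces4 or Ces5 gene was kept.

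**Figure D2:**
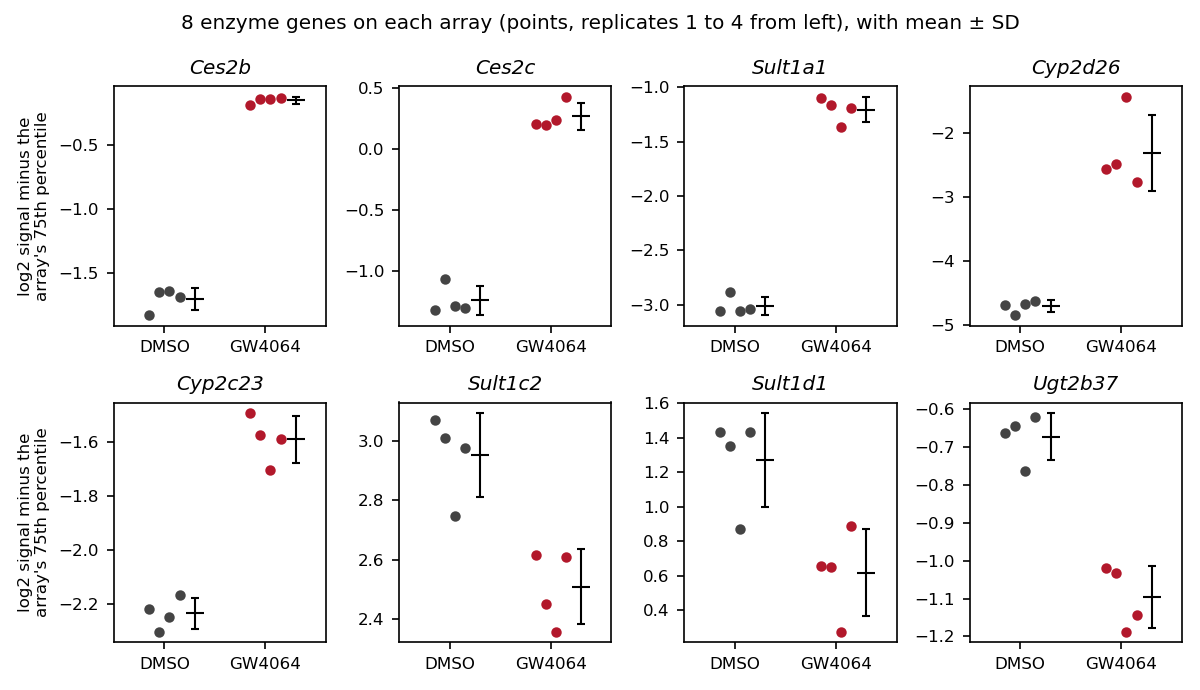
Level of 8 enzyme genes on each array (y axis, log2 signal minus the array's 75th percentile; points are replicates 1 to 4 of each group from left, bars mean ± SD). Ces2b, Ces2c, Sult1a1, Cyp2d26 and Cyp2c23 have all 4 GW4064 arrays above all 4 DMSO arrays, Sult1c2 and Ugt2b37 all below, and Sult1d1 overlaps.

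Among the sulfotransferases, which transfer sulfate from PAPS to their substrates, 1 rose and 3 fell. Sult1a1, the phenol sulfotransferase that acts on simple phenols and many drugs, was at -3.06, -2.89, -3.06 and -3.04 in DMSO and at -1.09, -1.17, -1.37 and -1.19 with GW4064. The groups were far apart, and the gene rose 3.50-fold (1.81 ± 0.07 log2, adjusted p = 1.63e-06 in limma). Its 2 probes gave 1.81 and 1.76, and the planned normexp fit gave 0.98 (1.97-fold, adjusted p = 0.578 in limma). Sult1c2 went the other way, from 3.07, 3.01, 2.75 and 2.98 in DMSO to 2.62, 2.45, 2.36 and 2.61. Its groups did not overlap, and it fell by 0.44 ± 0.09 on the log2 scale (1.36-fold lower, adjusted p = 0.00866 in limma). Sult1d1, which sulfates catecholamines, was at 1.43, 1.35, 0.87 and 1.43 in DMSO and at 0.65, 0.65, 0.28 and 0.89 with GW4064. It was 1.57-fold lower (-0.65 ± 0.16 log2, adjusted p = 0.0234 in limma), but DMSO replicate 3 lay below GW4064 replicate 4, and the call was lost without any one of 5 arrays (up to an adjusted p of 0.0638). Sult1b1, which acts on phenols and thyroid hormones, was at -2.12, -2.04, -2.30 and -2.06 in DMSO and -2.46, -2.36, -2.52 and -2.23 with GW4064. It was 1.20-fold lower with overlapping groups (-0.26 ± 0.08 log2, adjusted p = 0.0497 in limma); the call was lost without any one of 6 arrays and with slide as a block (0.068). Sult2a8, Sult2b1 and Sult4a1 did not pass (-0.09 to 0.12 log2), though Sult2b1 did without DMSO replicate 1 (0.0384).

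The Cyp2 family, the largest group here, held 21 kept genes, of which 6 rose on the brightest probe, 1 fell and 14 did not pass. Cyp2d26, a relative of the human drug-oxidising CYP2D6, gave the largest fold of all members. Its level was -4.68, -4.84, -4.66 and -4.62 in DMSO and -2.56, -2.49, -1.45 and -2.77 with GW4064. The groups did not overlap and GW4064 replicate 3 was the highest by a wide margin. The rise was 5.22-fold (2.38 ± 0.26 log2, adjusted p = 0.000445 in limma), between 2.09 and 2.53 log2 without any one array. It was smaller with normexp background correction, at 0.92 log2 (1.89-fold, adjusted p = 0.699 in limma) in the planned fit. The altered fit gave 1.56 (2.95-fold, adjusted p = 0.000156 in limma). The 6 other kept Cyp2d genes (Cyp2d9, Cyp2d11, Cyp2d12, Cyp2d13, Cyp2d22 and Cyp2d40) had log2 fold changes from -0.13 to 0.25 and did not pass. Cyp2d genes are close in sequence, and no probe sequences were compared here, so cross-hybridisation between relatives was not tested. The same limit holds for the Ces2, Ugt1a and Ugt2b genes.

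Several Cyp2c and Cyp2j enzymes are epoxygenases, P450s that turn arachidonic acid into epoxides with vascular and transport effects in the kidney. Cyp2c23, a kidney arachidonic acid epoxygenase, was at -2.22, -2.30, -2.25 and -2.17 in DMSO and -1.50, -1.57, -1.71 and -1.59 with GW4064, and rose 1.56-fold (0.64 ± 0.05 log2, adjusted p = 0.000109 in limma). Cyp2c37 lay higher on every GW4064 array than on any DMSO array, yet did not pass (0.80 ± 0.30 log2, adjusted p = 0.0978 in limma). Its difference was 0.32 on slide 1 and 1.27 on slide 2. The other kept Cyp2c genes, Cyp2c38 and Cyp2c70, gave -0.04 ± 0.15 and 0.00 ± 0.10.

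Of 5 kept Cyp2j genes 4 rose on the brightest probe, all without overlap, but for Cyp2j13 the other kept probe fell. Cyp2j9 was at -1.04, -1.05, -1.22 and -0.99 in DMSO and -0.39, -0.50, -0.62 and -0.52 with GW4064, a 1.48-fold rise (0.57 ± 0.07 log2, adjusted p = 0.000664 in limma). Cyp2j8 was at 0.91, 0.95, 0.79 and 0.88 in DMSO and 1.35, 1.27, 1.11 and 1.29 with GW4064, a 1.29-fold rise (0.37 ± 0.06 log2, adjusted p = 0.00388 in limma). In neither gene did the groups overlap, though for Cyp2j8 the highest DMSO array (0.95) was near the lowest GW4064 array (1.11). The rise of Cyp2j6, from 0.52, 0.59, 0.51 and 0.59 to 0.78, 0.67, 0.67 and 0.85, was 1.14-fold (0.19 ± 0.05 log2, adjusted p = 0.0325 in limma). That call was lost without any one of 6 arrays and under median centring (0.118). Cyp2j13 was at -1.09, -1.07, -1.14 and -1.02 in DMSO and -0.82, -0.82, -0.86 and -0.73 with GW4064 on its brighter probe, a 1.21-fold rise (adjusted p = 0.00301 in limma). Its 2 probes disagreed: the brighter gave 0.27 ± 0.04 log2, and the other -0.91 ± 0.12 (adjusted p over probes 0.00187 in limma), so the gene has no single direction here. With the mean of its probes Cyp2j13 passed as lower (-0.316 log2, adjusted p = 0.0199 in limma). Cyp2j5, at -6.26 to -4.98 in DMSO and -5.43 to -4.44 with GW4064, passed the background limit on 2 of 4 DMSO and 4 of 4 GW4064 arrays, and the test did not pass (0.86 ± 0.31 log2, adjusted p = 0.0855 in limma). It passed in 3 of 22 alternatives, among them without DMSO replicate 2 (0.0238) and the altered normexp fit (0.0105). Cyp2e1, the ethanol-oxidising P450, was at -3.07, -3.19, -3.76 and -3.28 in DMSO and -2.64, -2.63, -3.21 and -2.67 with GW4064, with overlap. It did not pass (0.54 ± 0.18 log2, adjusted p = 0.0705 in limma) but did in 9 of 23 alternatives, among them slide as a block (0.0372) and without GW4064 replicate 3 (0.0255).

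**Figure D3:**
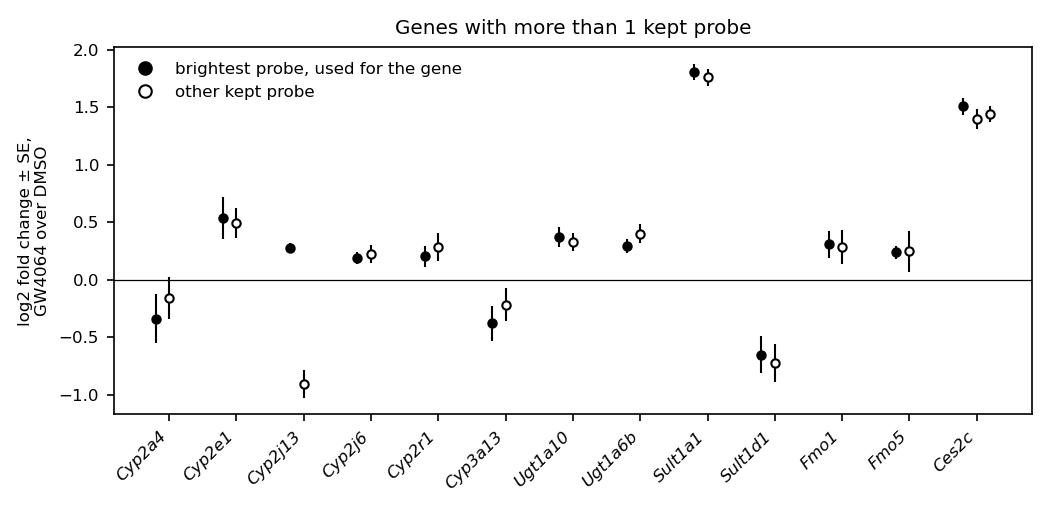
Log2 fold change of GW4064 over DMSO (y axis, ± SE) for every kept probe of the 13 genes with more than 1; filled points are the brightest probe, used for the gene. Probes had one sign for 7 of the 8 genes past the threshold, and Cyp2j13 had a second probe at -0.91.

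Other P450 members moved little. Cyp2s1, a P450 of epithelia outside the liver, was at 0.31, 0.35, 0.20 and 0.40 in DMSO and 0.15, 0.06, 0.01 and 0.06 with GW4064. It was 1.19-fold lower without overlap (-0.25 ± 0.05 log2, adjusted p = 0.0127 in limma). Cyp1b1, which oxidises oestrogens and aromatic hydrocarbons and is a classical target of the aryl hydrocarbon receptor, was at 0.40, 0.61, 0.71 and 0.59 in DMSO and 0.97, 0.84, 1.16 and 1.00 with GW4064. It rose 1.33-fold without overlap (0.42 ± 0.08 log2, adjusted p = 0.0108 in limma). Cyp2a4, Cyp2r1, the vitamin D 25-hydroxylase, and Cyp2t4 gave -0.34 ± 0.21, 0.20 ± 0.09 and 0.21 ± 0.14 and did not pass. Cyp2a4 passed as lower without DMSO replicate 3 (0.0181), and Cyp2r1 as higher with the mean of its probes (0.0209). Neither kept Cyp3a gene passed: Cyp3a11, a classical hepatic target of PXR, gave 0.00 ± 0.14 log2 and Cyp3a13 -0.38 ± 0.15 (adjusted p = 0.119 in limma; 0.0339 without DMSO replicate 4 and 0.03 on slide 1 alone). The sign of Cyp3a11 was not stable under other scalings (-0.03 after quantile normalization).

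The glucuronosyltransferase families differed in direction. Both kept Ugt1a genes, which share their last exons in a single locus so that a probe in the common part cannot tell them apart, rose. Ugt1a10 was at -1.48, -1.20, -1.46 and -1.37 in DMSO and -1.13, -0.80, -1.06 and -1.03 with GW4064, a 1.29-fold rise (0.37 ± 0.09 log2, adjusted p = 0.0181 in limma). Ugt1a6b, a phenol glucuronosyltransferase, was at 2.61, 2.90, 2.72 and 2.78 in DMSO and 3.04, 2.99, 3.07 and 3.08 with GW4064, a 1.23-fold rise (0.29 ± 0.06 log2, adjusted p = 0.0119 in limma). Neither gene's groups overlapped, and the 2 probes of each gave the same direction. In the Ugt2b family, which glucuronidates steroids and bile acids, Ugt2b37 was at -0.66, -0.64, -0.76 and -0.62 in DMSO and -1.02, -1.03, -1.19 and -1.14 with GW4064. It was 1.34-fold lower without overlap (-0.42 ± 0.05 log2, adjusted p = 0.000974 in limma). Ugt2b36, from -1.79, -1.57, -1.79 and -1.69 to -2.02, -1.88, -2.11 and -2.05, was 1.23-fold lower (-0.30 ± 0.07 log2, adjusted p = 0.0167 in limma). Ugt2b38, from 0.23, 0.37, 0.29 and 0.35 to 0.20, 0.19, 0.02 and 0.04, was 1.15-fold lower (-0.20 ± 0.06 log2, adjusted p = 0.0437 in limma). Its groups were separated by a narrow gap, and its call was lost without any one of 6 arrays and under median centring (0.0524). Ugt2b34 and Ugt2b5 did not pass (-0.03 and -0.00). Ugt3a1 (0.06 ± 0.14) and Ugt3a2 (0.45 ± 0.17, adjusted p = 0.0982 in limma) did not pass either, but Ugt3a2 passed as higher with slide as a block (0.0317) and without DMSO replicate 1 (0.0221). The difference between families was not tested.

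Flavin-containing monooxygenases oxidise nitrogen and sulfur atoms in drugs, and 3 of 4 kept genes rose modestly. Fmo2 was at -1.997, -2.26, -2.29 and -2.40 in DMSO and -1.59, -1.74, -1.98 and -1.83 with GW4064, a 1.37-fold rise without overlap (0.45 ± 0.10 log2, adjusted p = 0.0178 in limma). Fmo4, from -2.74, -2.79, -2.95 and -2.77 to -2.39, -2.42, -2.73 and -2.21, rose 1.30-fold (0.37 ± 0.10 log2, adjusted p = 0.0371 in limma). That call was lost without any one of 7 arrays (up to 0.0904). Fmo5, from -2.07, -2.22, -1.998 and -2.08 to -1.92, -1.83, -1.87 and -1.80, rose 1.18-fold (0.24 ± 0.05 log2, adjusted p = 0.0168 in limma). Its call was lost with the mean of its probes (0.136) and with the altered normexp fit (0.0638). Both Fmo4 and Fmo5 had a negative sign under the planned normexp fit (-0.155 and -0.071). Fmo1, named as the family's brightest probe, gave 0.31 ± 0.12 log2 and did not pass (adjusted p = 0.107 in limma).

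**Figure D4:**
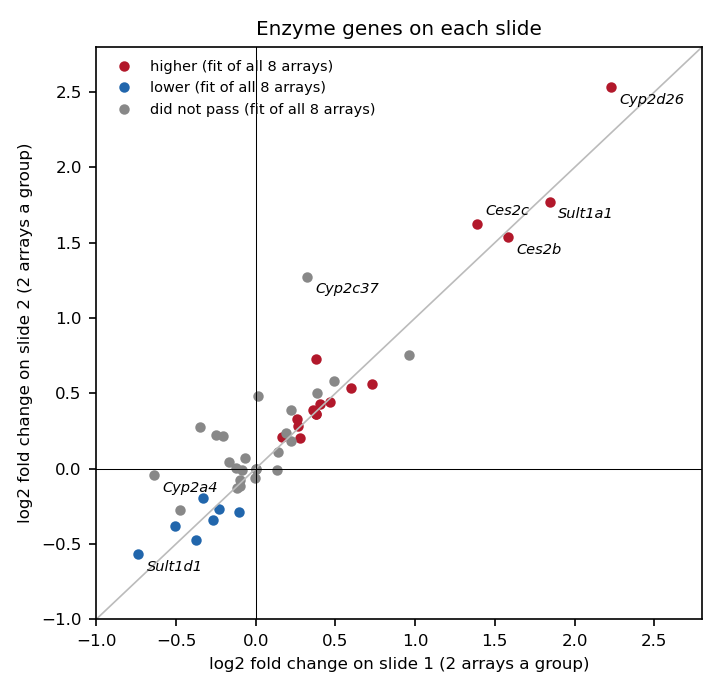
Log2 fold change of GW4064 over DMSO for the 48 genes on slide 1 (x axis) and slide 2 (y axis), each from 2 arrays a group; colours show the calls from all 8 arrays and the line marks equal values. All 23 called genes have the same sign on both slides, but they were called from these same arrays. Cyp2c37, which did not pass, has 0.32 and 1.27.

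Genes that work beside these enzymes were taken as whole lists. Over all genes tested 20.8% passed, 11.8% as higher and 8.95% as lower. The electron transfer, cosubstrate and other P450 lists passed at shares near the 20.8% of all genes. The list of electron transfer partners of P450 also held heme synthesis and breakdown genes. Of its 14 genes 3 rose: the heme synthesis enzyme Alas1 (0.21 log2), Cyb5r1 (0.18) and Cyb5a (0.16). Under median centring 1 gene of the list passed as higher. Por, the reductase that supplies P450 with electrons, gave -0.11 ± 0.04 and did not pass. Of 13 genes that supply or remove sulfate and glucuronate cosubstrates, 2 rose and 1 fell: Papss2, which makes the sulfate donor (0.32 log2), Slc35d1, a nucleotide sugar carrier (0.23), and the sulfatase Arsa (-0.24). Of 18 regulators 4 rose and 2 fell. The xenobiotic receptor gene Nr1i2 (PXR) rose 2.89-fold and Hnf4a 1.80-fold, and Nr1h4, the receptor for GW4064, was 1.37-fold lower. Of 22 other P450 genes 3 rose and 1 fell, Cyp24a1, which inactivates vitamin D, by 3.57-fold, and Cyp4a12a and Cyp4a12b by 1.92-fold and 1.89-fold; Cyp4b1 was 1.49-fold lower. Of 47 other phase I and II enzymes 16 rose and 6 fell, including Inmt (2.35-fold higher), the quinone reductase Nqo1 (1.85-fold higher) and Hnmt, which methylates histamine (1.74-fold lower).

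**Figure D5:**
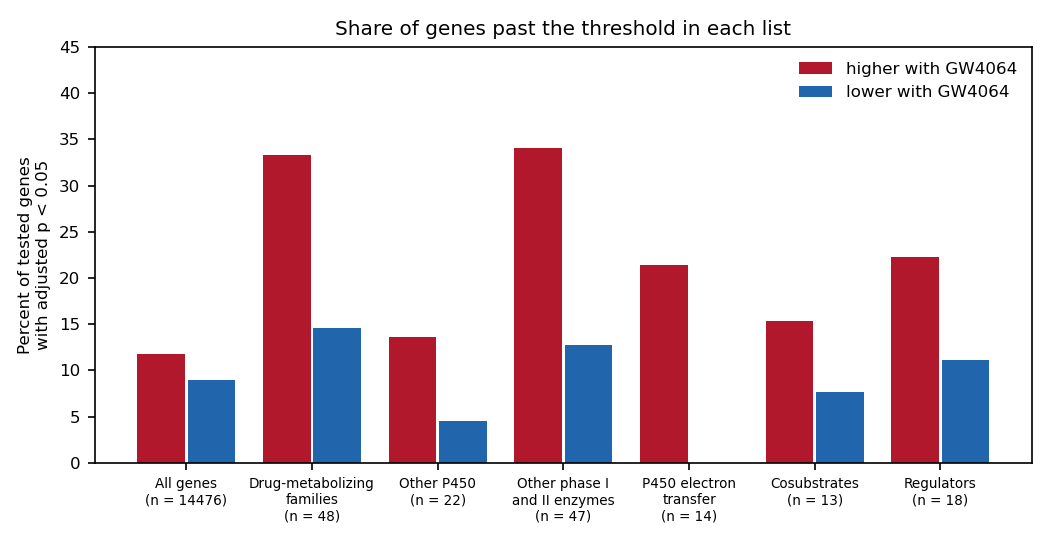
Percent of tested genes that passed as higher (red) or lower (blue) with GW4064 at an adjusted p under 0.05 (y axis), for all genes, the 48 enzyme genes and 5 lists of related genes; n is the number tested. The enzyme genes stand at 33.3% higher and 14.6% lower and all genes at 11.8% and 8.95%.

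Several markers of cell types moved too. Over all genes tested 20.8% passed, 11.8% as higher and 8.95% as lower. Of 20 proximal tubule markers 12 rose, among them the organic anion carrier Slc22a6 (4.05-fold higher). The 3 that fell were Kap (-0.68 log2), Cyp4b1 (-0.57) and Acsm2 (-0.65). Lists overlap: Cyp4b1 is also counted with the other P450 genes, Acsm2 with the other phase I and II enzymes and Hnf4a with the regulators. The summed linear level of the tubule markers was 143 to 188 in DMSO and 194 to 232 with GW4064. Leukocyte markers rose in 6 of 14 cases (summed level 17.8 to 19.2, then 22.8 to 25.5). Csf1r, Cd14 and Itgam weigh most in that sum, with log2 fold changes of 0.75, 0.40 and 0.03. Of the 14 leukocyte markers 13 had a positive fold change. The other, Ptprc, was 1.87-fold lower without overlap but did not pass (adjusted p = 0.279 in limma). Endothelial markers rose in 4 of 10 cases (5.51 to 6.43, then 6.3 to 7.09), and fibroblast markers in 3 of 10 with 1 lower (82.6 to 107, then 97.2 to 113). Other nephron segments had 1 higher and 2 lower of 14 (14.4 to 16.7, then 15 to 17.6), near the share over all genes. The summed levels of the endothelial, fibroblast and other nephron lists overlapped between the groups. Hepatocyte markers rose in 3 of 6 (4.62 to 5.87, then 8.09 to 9.28), while Alb and Cps1, which define hepatocytes, were well above background on 0 of 8 arrays, as were Slc7a13 of the proximal tubule list, Tek of the endothelial and Lum of the fibroblast list. The tubule markers Lrp2, Cubn and Slc34a1 were well above background on 8 of 8. So were most markers of every other list, such as Ptprc, Pecam1, Col1a1, Aqp2 and the hepatocyte marker Apoa2. The part of these markers in the enzyme changes was not tested. In whole cultures fewer cells of a type and less RNA per cell cannot be told apart.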

How the data were processed

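The 8 arrays were single-colour Agilent arrays; intensity values (gProcessedSignal, background-subtracted) and quality flags were deposited and, per the file headers, come from Feature Extraction 10.7.3.1. Per the submitters' processing notes, the software was Agilent Feature Extraction 10.7, with limma. A deposited table of log2 values served as an alternative. Probes averaged over spots were taken as log2 minus the array's 75th percentile, kept if well above background on 4 of 8 arrays, named through RefSeq (GRCm38.p6; 69.1% of 39429 probes got a symbol) and, per gene, the brightest kept probe was used. GW4064 was set against DMSO by lmFit and eBayes of limma 3.58.1 (R 4.3.3) with Benjamini-Hochberg adjustment over 14476 genes, and the script was tested on simulated data. Text names every kept member past the threshold, each family's brightest probe, and up to 4 genes of a list; members named beyond that, all of which did not pass, were chosen after their values were seen, as were Por, Slc22a6 and other markers. Members and lists were chosen with earlier results of these data known. The same replicate numbers did not pair the samples (correlations -0.13, -0.03, 0.19 and -0.02). Alternatives covered background correction, scaling, filter, probe rule, slide, replicate block and leaving out each array. DMSO replicate 3 held 6 spots with a local background over 10 times its median, 0 of them on member probes. The altered normexp fit, added after seeing the data, replaced local backgrounds marked by the software as outliers on any array with that array's median. It was not limited to those 6 spots. Why the planned normexp fit gave fewer calls was not tested.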

Additional observations from a re-analysis of the deposited data

Results flagged for a closer look

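In 4 of 52 groups of 4 arrays (7.69%) 1 array lay apart from its 3 fellows; by chance about 5% would. Ces2b in GW4064 replicate 1 was -0.187, against -0.138 to -0.129 on the others. Ces2c in DMSO replicate 2 was -1.064, against -1.316 to -1.285. Sult1a1 in DMSO replicate 2 was -2.889, against -3.061 to -3.043. Sult1d1 in DMSO replicate 3 was 0.868, against 1.35 to 1.43.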

How the results depend on the processing

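Of the 23 called members, 18 kept the call without any one array and 5 lost it for some array (Sult1b1, Sult1d1, Ugt2b38, Cyp2j6 and Fmo4). Counts of higher and lower members and of all genes were 16, 7 and 3006. With normexp background correction they were 1, 0 and 120 (6 and 4 members at an unadjusted p under 0.05 in limma), and with marked backgrounds replaced, an alternative chosen after seeing the data, 15, 5 and 2161. Slide 1 alone gave 9, 4 and 966, and slide 2 alone 4, 0 and 220 (17 and 5 members at an unadjusted p under 0.05 in limma); these use fewer arrays. No filter on dim probes gave 17 higher and 4 lower of 114 members and 2167 genes, with a median log2 fold change of -0.062 over the members. The share over all genes was not computed for that fit. With probes well above background on all 8 arrays the median was 0.092 over 46 members. Leaving out 1 array gave 14 to 17 higher and 4 to 7 lower members, 4 without DMSO replicate 2 or GW4064 replicate 2, and 2076 to 2827 genes. The replicate block gave 18, 7 and 2322: it ended the calls of Ugt2b38 (0.085), Cyp2j6 (0.058) and Fmo5 (0.0526), and Cyp2e1 (0.0027), Cyp2j5 (0.0187), Cyp2r1 (0.0491), Cyp3a13 (0.0154) and Fmo1 (0.0457) passed. Slide as a block gave 18, 6 and 2856: it ended the call of Sult1b1, and Cyp2e1 and Ugt3a2 passed. The replicate numbers were not shown to pair the samples, and 1 of 4 DMSO arrays correlated best with its own number.

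Among called members, directions turned with normexp background correction for Ces2g (-0.495), Fmo4 (-0.155) and Fmo5 (-0.071), and with the mean of a gene's probes for Cyp2j13 (-0.316). The other turned directions are of members that did not pass. With the planned normexp fit they were Cyp2c37 (-0.322), Cyp2c70 (-0.521), Cyp2d13 (-0.61), Cyp2e1 (-0.126), Cyp2j5 (-0.352), Cyp2t4 (-0.556), Cyp3a11 (-0.672), Ugt3a1 (-0.681) and Ugt3a2 (-0.548). With the altered fit they were Cyp2c38 (0.019), Cyp2d11 (-0.014), Cyp2d40 (0.058), Cyp2d9 (0.026) and Sult4a1 (0.085). For Cyp2c70, Cyp2d11 and Cyp3a11 they were -0.023, -0.004 and -0.029 after quantile normalization, -0.015, -0.012 and -0.011 with median centring, and -0.022, -0.002 and -0.028 in the deposited log2 table. Slide 1 alone turned Cyp2d11 (-0.065), Cyp3a11 (-0.208) and Ugt2b5 (0.002), array weights Cyp3a11 (-0.095) and Ugt2b5 (0.021), and slide 2 alone Ces2e (0.223), Cyp2c38 (0.275), Cyp2c70 (-0.001), Cyp2d40 (0.0), Sult4a1 (0.043) and Ugt3a1 (-0.011). Leaving out 1 array gave -0.141 to 0.091 for Ces2e, -0.156 to 0.084 for Cyp2c38, -0.081 to 0.07 for Cyp2c70, -0.055 to 0.073 for Cyp2d11, -0.143 to 0.045 for Cyp2d40, -0.117 to 0.114 for Cyp3a11, -0.139 to 0.017 for Sult4a1, -0.087 to 0.03 for Ugt2b34, -0.025 to 0.029 for Ugt2b5 and -0.035 to 0.182 for Ugt3a1. Over all 48 members and 23 alternatives (22 for Cyp2j5 and Ugt3a2), 912 fold changes kept direction and side of the threshold, 100 kept direction and lost the call, 24 passed where they had not, and 66 changed sign. The cause was not tested. With 4 arrays a group, dim probes such as Ces2g and Cyp2j5 lie close to background.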

Other observations

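Other phase I and II enzymes, named after their values were seen, moved in both directions. The monoamine oxidase genes Maob and Maoa rose 1.61-fold and 1.29-fold (adjusted p = 0.0059 and 0.0133 in limma), and the carbonyl reductases Cbr3 and Cbr1 1.35-fold and 1.26-fold. The thiopurine methyltransferase Tpmt rose 1.24-fold. The glycine conjugation genes Glyat and Acsm2 were 1.47-fold and 1.57-fold lower (adjusted p = 0.000298 and 0.0216 in limma), and the alcohol dehydrogenase Adh1 1.30-fold lower (0.0132), whereas Adh7 was 1.82-fold higher (0.0339).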
